A study of Mus musculus with 5 samples.

Results

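This account follows 40 mouse genes of the cell cycle and of DNA replication, chosen by symbol and found by NCBI gene identifier among 27179 genes in the count table. All 40 were present, and 39 of them had enough counts to be tested. ILC3, group 3 innate lymphoid cells, were sorted as CD45+CD3-RORγtGFP+CD127+ cells and sequenced as 3 libraries. CD4 T cells were sorted as CD45+CD3+CD4+ cells and sequenced as 2 libraries. RORγtGFP is a green fluorescent readout of RORγt, the lineage factor of ILC3. All cells came from wild type C57BL/6 mice, and the SMARTer Ultra Low Input kit (V4), which amplifies full-length cDNA, was used. The design text gives 3 mice in all, and no label ties a library to a mouse, so the spread behind the p-values is that of these libraries and may be technical. Levels are counts scaled to a common library total (CPM) with edgeR's TMM factors, and a log2 difference is ILC3 over CD4 T. Gene coordinates are those of RefSeq on GRCm38.p6. In bulk libraries, fewer cells of a cycling type and less RNA per cell cannot be told apart.

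A cell that divides passes from G1 into DNA synthesis when D-type cyclins with Cdk4 or Cdk6, and then cyclin E with Cdk2, inactivate the retinoblastoma protein and free E2F factors. E2F factors switch on genes that license origins, unwind DNA and supply nucleotides. Later, genes of mitosis are switched on through other promoter elements, and CDK inhibitors hold the kinases back in resting or stressed cells. Lymphocytes in tissue are mostly at rest and divide after cytokine or antigen signals.

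Promoter stretches are shown because the licensing genes and the mitotic genes, whose levels are described in separate paragraphs, carry different short motifs. RefSeq promoter windows of GRCm38.p6, from 250 bases before to 50 after a start, were found for 33 of the 40 genes. They were searched on both strands for the E2F letters TTTGGCGC, TTTCCCGC, TTTCGCGC and TTTGCCGC, and for the cell cycle homology region (CHR) letters TTTGAA and TTCGAA. E2F letters were in 6 of the 7 licensing and helicase genes with a window, against 2.6% of all 27025 genes in the promoter table. CHR letters were in 7 of the 8 mitotic genes with a window, against 21.7% of all genes. No CHR match overlapped an E2F match. E2F letters were in 0 of the 8 mitotic genes, CHR letters in 2 of the 7 licensing genes, and neither motif in any of the 5 genes of nucleotide supply or the 3 CDK inhibitors. A match describes letters in the window and is no proof of binding. The match nearest to the start is given for each gene in 30 bases on the gene's strand, with the match in capitals.
Cdc6: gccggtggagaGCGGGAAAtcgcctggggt
Cdt1: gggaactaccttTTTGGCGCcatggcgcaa
Mcm3: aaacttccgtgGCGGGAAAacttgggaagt
Mcm5: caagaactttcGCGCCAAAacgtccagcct
Mcm6: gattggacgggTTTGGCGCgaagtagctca
Mcm7: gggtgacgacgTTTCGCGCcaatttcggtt
Mki67: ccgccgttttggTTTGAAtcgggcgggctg
Top2a: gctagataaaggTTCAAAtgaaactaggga
Aurka: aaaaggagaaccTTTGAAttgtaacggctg
Bub1: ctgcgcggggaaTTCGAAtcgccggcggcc
Plk1: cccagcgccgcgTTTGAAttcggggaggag
Cdc20: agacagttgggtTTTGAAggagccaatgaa
Ube2c: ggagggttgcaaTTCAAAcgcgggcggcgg
On GRCm38.p6 the plus-strand stretches lie for Cdc6 at chr11:98908002-98908031, Cdt1 at chr8:122568035-122568064, Mcm5 at chr8:75109349-75109378, Plk1 at chr7:122159453-122159482 and Ube2c at chr2:164769888-164769917. Those on the minus strand lie for Mcm3 at chr1:20820275-20820304, Mcm6 at chr1:128359734-128359763, Mcm7 at chr5:138171849-138171878, Mki67 at chr7:135716460-135716489, Top2a at chr11:99024195-99024224, Aurka at chr2:172370521-172370550, Bub1 at chr2:127831828-127831857 and Cdc20 at chr4:118437344-118437373. Mcm6, Plk1 and Ube2c are the genes among them that passed the test described below. Mcm6 held 3 E2F matches, and the 120 bases before its start, chr1:128359706-128359825 on the minus strand, show all of them, since the first run of capitals is a pair of matches that overlap.
Mcm6 upstream: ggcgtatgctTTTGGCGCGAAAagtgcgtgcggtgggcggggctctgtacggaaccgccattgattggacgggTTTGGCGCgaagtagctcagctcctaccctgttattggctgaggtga

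The libraries held 15123715 to 25956023 counts. Antigen receptor segment genes took 6.55% to 29.8% of the counts in ILC3 against 10.2% to 17% in CD4 T. All 8 ILC3 identity markers were higher in ILC3, with a sum of 28583 to 31508 CPM in ILC3 against 955 to 1765 CPM in CD4 T. Of 9 CD4 T identity markers, 5 were lower in ILC3, with a sum of 486 to 1065 CPM in ILC3 against 1392 to 3738 CPM in CD4 T. Cd3e, Cd3g, Cd28 and Lat were not called, and all of these but Cd28 overlapped between the groups. Cd3g had 362, 470 and 161 CPM in ILC3, sorted as CD3-, against 280 and 1310 CPM in CD4 T. The libraries labelled CD4 T also held markers of other cells. Of 10 markers of plasmacytoid dendritic cells, 9 were lower in ILC3, and their sum was 256 to 677 CPM in ILC3 against 4294 to 5212 CPM in CD4 T. Of 13 markers of conventional dendritic cells and macrophages, 9 were lower and 1 was higher in ILC3, with a sum of 208 to 256 CPM in ILC3, where Clec10a had no count, and 1795 to 2812 CPM in CD4 T. Of 7 markers of CD8 and gamma-delta T cells, 4 were lower and 1 was higher in ILC3, where Gzmk had no count (987 to 1432 CPM summed in ILC3, 2894 to 5055 CPM in CD4 T). The higher one was the gamma-delta gene Trdc, with 475, 353 and 193 CPM in ILC3 against 0.832 and 2.27 CPM in CD4 T. Trgc1, the other gamma-delta gene, had 362, 466 and 298 CPM in ILC3 against 0.277 and 23.4 CPM in CD4 T and was not called. Markers of plasma cells summed to 18858 to 101736 CPM in ILC3 against 21831 to 35323 CPM in CD4 T, and 2 of 8 were lower in ILC3. Jchain alone made up most of these sums, with 17875 to 100425 CPM in ILC3 and 20826 to 34269 CPM in CD4 T. Of 12 markers of naive and germinal centre B cells, 8 were tested and 0 were called (174 to 328 CPM summed in ILC3, 124 to 228 CPM in CD4 T), and Pax5 and Rgs13 had no count in any library. Epithelial markers summed to 7.58 to 14.9 CPM in ILC3 against 24.2 to 64.5 CPM in CD4 T, with 0 of 2 tested markers called, and of the erythroid markers Hba-a1 had no count in any library, while the single one tested was not called. Most markers of dendritic cells, macrophages and CD8 T cells thus stood higher in CD4 T, and the gamma-delta genes stood higher in ILC3. The part of such other cells in the differences below was not tested.

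Every ILC3 library lay below both CD4 T libraries in 8 of 8 genes of origin licensing and the helicase and in 7 of 10 mitotic genes, and above both in Cdkn1a, which encodes the CDK inhibitor p21. Among the 39 genes tested, 1 rose, Cdkn1a, and 5 fell in ILC3: Ccnd1, Cdkn1b, Mcm6, Plk1 and Ube2c (edgeR quasi-likelihood test, Benjamini-Hochberg adjusted p under 0.05 over 12747 genes). Over all genes tested, 6.46% were called higher and 7.21% lower in ILC3, so 1 of 39 higher is below the background share and 5 of 39 lower, 12.8%, is somewhat above it. The median log2 difference of the 39 genes was -1.77, and 32 of them were negative, while the median over all genes tested was -0.10. In 24 of the 39 genes, 61.5%, every ILC3 library lay below both CD4 T libraries, which held for 29.6% of all genes tested. In 3 of 39, Cdk4, Cdkn1a and Pcna, every ILC3 library lay above both on the TMM scale, against 25.5% of all genes. The log2 difference of Pcna was -0.061 with library size as the only scaling. The remaining 33 genes tested did not pass, with adjusted p from 0.0566 to 0.853 in edgeR. At an unadjusted p under 0.05 there were 15 genes, and the share of all genes at that cut was not taken. The numbers called higher and lower were 1 and 12 by DESeq2 and 1 and 10 by limma-voom. Both methods also called more of all 12747 genes. DESeq2 called 1914 higher and 1858 lower, and limma-voom 1317 and 1402, against 824 and 919 by edgeR. With each library left out in turn, 0 to 2 genes were called higher and 2 to 4 lower, and Ccnd1 was the only called gene to pass in all 5 of these fits.

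**Figure D1:**
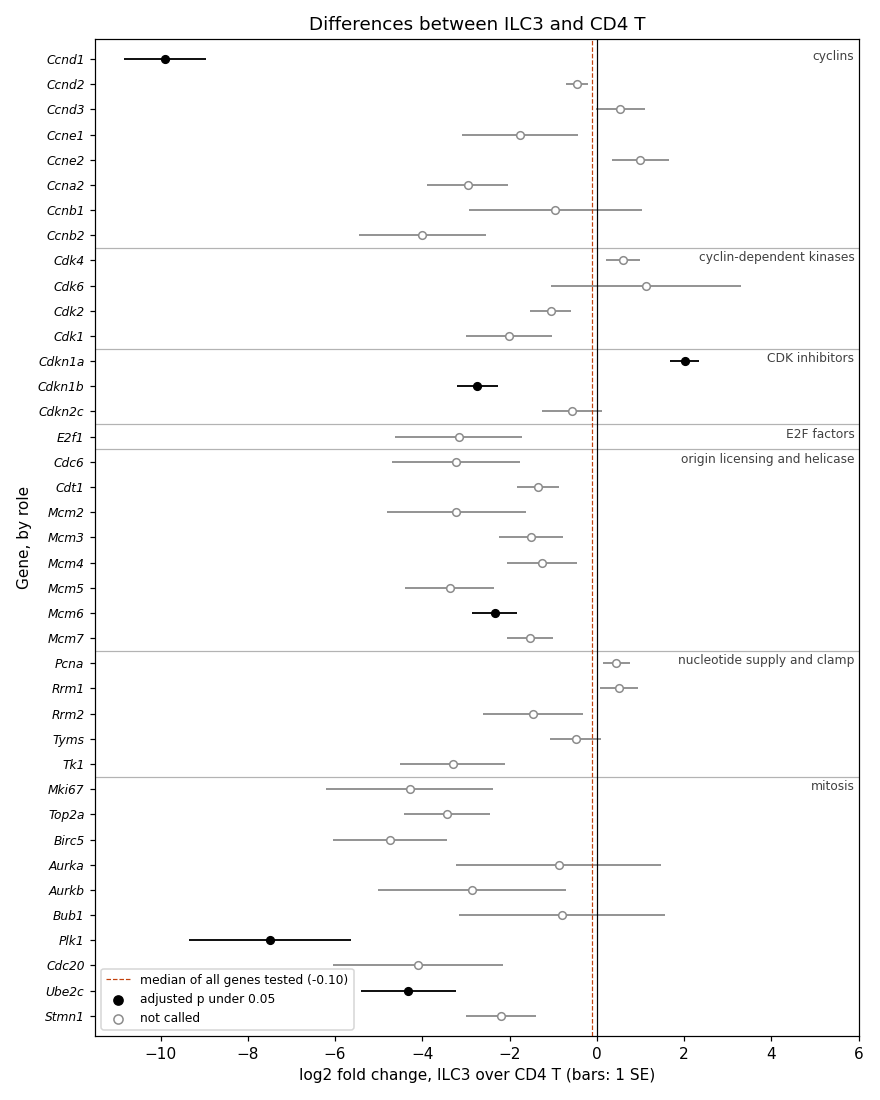
Log2 fold change of ILC3 over CD4 T for the 39 genes tested, grouped by role, with bars of 1 SE; filled points passed the edgeR test at an adjusted p under 0.05 and open points did not. Most points lie left of the dashed line at the median of all genes tested, -0.10, and Cdkn1a at 2.01 is the filled point to the right of it.

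The D-type cyclins, which bind Cdk4 and Cdk6 in G1, differed in which member was present. Ccnd1 (chr7:144929931-144939831), known as the cyclin D of many tissues other than lymphocytes, had 2, 0 and 2 counts in ILC3 against 2730 and 541 counts in CD4 T. These are 0.0722, 0 and 0.117 CPM in ILC3 against 108 and 29.3 CPM in CD4 T. ILC3 libraries were thus at or near 0 for Ccnd1, and the CD4 T libraries were far apart from each other. From the summed counts, the level was 1131 times lower in ILC3, with a counting interval of 441 to 4154 that covers counting error only. The fitted log2 difference was -9.91 (SE 0.941, by edgeR, adjusted p = 0.00298), with -8.67 without CD4 T replicate 1 and -10.55 without CD4 T replicate 2. Ccnd2, a main D-type cyclin of lymphocytes, had 92.9, 91.0 and 100.4 CPM in ILC3 against 126 and 134 CPM in CD4 T. Those groups did not overlap, yet the log2 difference of -0.46 (SE 0.249) did not pass (by edgeR, adjusted p = 0.25). Ccnd3, the other main D-type cyclin of lymphocytes, had 20.7, 15.2 and 7.77 CPM in ILC3 against 9.20 and 10.9 CPM in CD4 T, and the groups overlapped (log2 difference 0.54, SE 0.564, by edgeR, adjusted p = 0.556). Per kilobase of exon, Ccnd2 made 62.0%, 68.5% and 82.3% of the D-type cyclin level in the ILC3 libraries, and 36.5% and 61.9% in the CD4 T libraries. Ccnd1 made 0.0864%, 0% and 0.172% of it in ILC3, against 56.2% and 24.3% in CD4 T. In CD4 T replicate 1 Ccnd1 thus exceeded Ccnd2 per kilobase, and in CD4 T replicate 2 it did not.

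**Figure D2:**
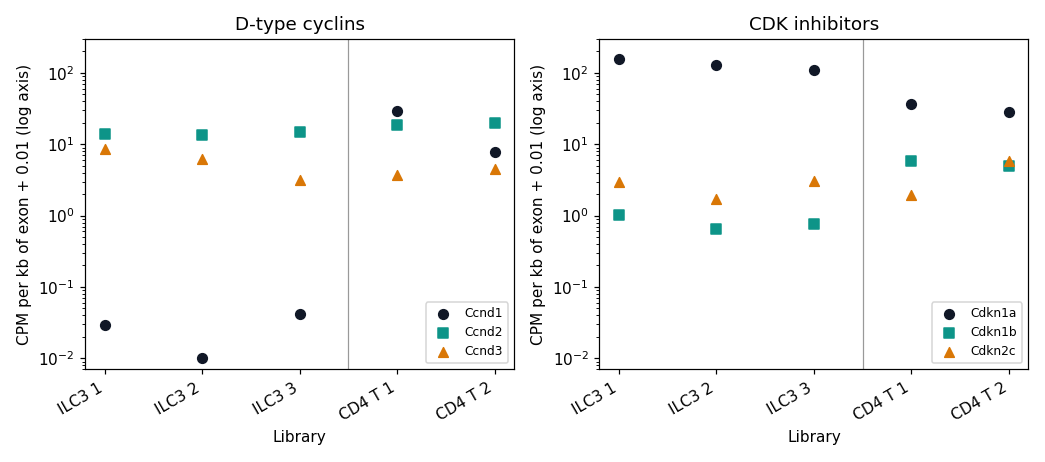
CPM per kilobase of exon plus 0.01 on a log axis for the 3 D-type cyclins (left) and the 3 CDK inhibitors (right), with a point for each of the 3 ILC3 and the 2 CD4 T libraries. Ccnd1 is near the bottom of the axis in ILC3 only, and Cdkn1a and Cdkn1b are further apart in ILC3 than in CD4 T.

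Of the CDK inhibitors, Cdkn1a rose and Cdkn1b fell in ILC3. Cdkn1a (chr17:29090979-29100722), which encodes p21 and is known as a target of p53, had 424, 346 and 300 CPM in ILC3 against 101 and 76.4 CPM in CD4 T. Every ILC3 library stood well above both CD4 T libraries. Its mean was 356 ± 62.5 CPM (SD, n = 3) in the ILC3 libraries, against 88.5 ± 17.1 CPM (SD, n = 2) in the CD4 T libraries, and it rose by 2.01 on the log2 scale (SE 0.323, by edgeR, adjusted p = 0.0135). Cdkn1a did not pass when ILC3 replicate 2 was left out (by edgeR, adjusted p = 0.052) and with library size as the only scaling (0.0541, log2 difference 1.54). Cdkn1b, which encodes p27, an inhibitor known for holding resting T cells out of the cycle, had 4.55, 2.95 and 3.45 CPM in ILC3 against 26.3 and 22.5 CPM in CD4 T. Its groups were far apart and each was narrow. It fell by 2.74 on the log2 scale (SE 0.479, by edgeR, adjusted p = 0.0171). Without ILC3 replicate 2, ILC3 replicate 3 or CD4 T replicate 1 the edgeR adjusted p of Cdkn1b was 0.0644, 0.0509 or 0.068. Cdkn2c, the Cdk4 and Cdk6 inhibitor p18, had 8.01, 4.55 and 8.24 CPM in ILC3 against 5.19 and 15.4 CPM in CD4 T. Its groups overlapped, and its log2 difference of -0.57 (SE 0.69, by edgeR, adjusted p = 0.615) was 0.43 without CD4 T replicate 2. Per kilobase, Cdkn1a was 156, 197 and 146 times Cdkn1b in the ILC3 libraries, and 6.41 and 5.68 times in the CD4 T libraries.

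Of the kinases, none passed the test. Cdk4, the G1 partner of D-type cyclins, had 117, 121 and 105 CPM in ILC3 against 47.6 and 103 CPM in CD4 T. Its log2 difference was 0.60 (SE 0.381, by edgeR, adjusted p = 0.32). Over the alternatives the Cdk4 difference ran from 0.109 to 1.28, the latter with CD4 T replicate 2 left out. Cdk6, the other such kinase, was barely counted, with at most 1.55 CPM in ILC3 against 0.542 CPM in CD4 T. Cdk2, which acts with cyclins E and A, had 7.36, 7.05 and 9.88 CPM in ILC3 against 18.8 and 14.8 CPM in CD4 T, with all ILC3 libraries lower (log2 difference -1.06, SE 0.472, by edgeR, adjusted p = 0.171). Cdk1, the kinase of mitotic entry, had 7.54, 0.833 and 5.20 CPM in ILC3 against 7.49 and 29.3 CPM in CD4 T, and ILC3 replicate 1 overlapped CD4 T replicate 1.

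None of the later cyclins passed the test. Cyclin E genes, which act at the start of DNA synthesis, did not point one way: Ccne1 had 0.0722 to 3.62 CPM in ILC3 against 5.91 and 8.01 CPM in CD4 T, while Ccne2 had 6.17 to 12.7 CPM in ILC3 against 3.69 and 6.34 CPM in CD4 T. Neither passed (by edgeR, adjusted p = 0.403 and 0.339). Ccna2, cyclin A of S phase and G2, had 1.8, 0.32 and 1.64 CPM in ILC3 against 10.1 and 9.69 CPM in CD4 T. The CD4 T libraries were close to each other and above all ILC3 libraries, and the log2 difference was -2.96 (SE 0.925, by edgeR, adjusted p = 0.0745). Ccnb2, a B-type cyclin of mitosis, had 5.77, 1.47 and 0 CPM in ILC3 against 18.7 and 59.9 CPM in CD4 T (log2 difference -4.0, SE 1.46, by edgeR, adjusted p = 0.109). Ccnb1, the other B-type cyclin, had 0 to 1.23 CPM in ILC3 against 0.198 and 2.55 CPM in CD4 T, so its groups overlapped.

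E2f1, an activator of S phase genes, had 31, 3 and 1 counts in ILC3 against 148 and 47 counts in CD4 T (1.12, 0.192 and 0.0585 CPM in ILC3 against 5.87 and 2.55 CPM in CD4 T; by edgeR, adjusted p = 0.182). E2f2, a related activator and the member not tested, had no count in ILC3 and 7 and 40 counts in CD4 T. From summed counts, against 3 counts over the ILC3 group, E2f2 was at least 21.7-fold lower in ILC3. This bound does not cover the spread between the CD4 T libraries, and 40 of the counts came from CD4 T replicate 2.

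All 8 genes of origin licensing and the replicative helicase were below CD4 T in every ILC3 library, and 1 of them, Mcm6, passed the test. Over all genes tested, every ILC3 library lay below both CD4 T libraries in 29.6%, and 7.21% were called lower. The products of Mcm2 to Mcm7 form a ring of 6 subunits that is loaded on origins by Cdc6 and Cdt1 and unwinds DNA. Mcm6 (chr1:128331575-128359705) had 5.16, 11.3 and 10.6 CPM in ILC3 against 28.4 and 63.2 CPM in CD4 T. Its level differed more between the CD4 T libraries than among the ILC3 libraries, and it fell by 2.35 on the log2 scale in ILC3 (SE 0.522, by edgeR, adjusted p = 0.0342). Mcm6 did not pass when ILC3 replicate 1, 2 or 3 was left out (by edgeR, adjusted p = 0.0843, 0.0827 and 0.0752). Leaving out CD4 T replicate 2 gave a log2 difference of -1.64 (by edgeR, adjusted p = 0.114). Mcm5 had 0.505, 8.01 and 2.28 CPM in ILC3 against 47.4 and 26.7 CPM in CD4 T (log2 difference -3.37, SE 1.02, by edgeR, adjusted p = 0.0684). Its ILC3 libraries differed widely among themselves, but none came near CD4 T.

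The other helicase subunits differed less or were more scattered. Mcm7 had 7.22, 4.68 and 4.85 CPM in ILC3 against 14.3 and 18.0 CPM in CD4 T (log2 difference -1.53, SE 0.521, by edgeR, adjusted p = 0.0931). Mcm3 had 5.77, 4.04 and 21.4 CPM in ILC3 against 27.7 and 31.9 CPM in CD4 T, with ILC3 replicate 3 close to the CD4 T libraries. Without that library Mcm3 passed, with a log2 difference of -2.60 (by edgeR, adjusted p = 0.0449). Mcm4 had 30.02, 15.9 and 2.92 CPM in ILC3 against 42.8 and 35.1 CPM in CD4 T, and here ILC3 replicate 3 was the lowest. Mcm2 was the least counted subunit, with 1, 3 and 7 counts in ILC3 against 11 and 66 counts in CD4 T. The summed level of Mcm2 to Mcm7 was 48.7, 44.1 and 42.5 CPM in ILC3 against 161 and 179 CPM in CD4 T, so the sum varied far less among ILC3 libraries than its parts. Per kilobase, the highest subunit exceeded the lowest 781-fold, 77.6-fold and 58.2-fold in the ILC3 libraries and 106-fold and 13.6-fold in the CD4 T libraries. The lowest was Mcm2 in every library, so the ILC3 folds rest on its 1, 3 and 7 counts and have no well measured size. Cdt1 had 7.87, 5.83 and 6.72 CPM in ILC3 against 20.1 and 14.7 CPM in CD4 T (log2 difference -1.35, SE 0.482, by edgeR, adjusted p = 0.104). Cdc6 had 1.98, 1.28 and 0 CPM in ILC3 against 14.2 and 6.50 CPM in CD4 T (log2 difference -3.23, SE 1.46, by edgeR, adjusted p = 0.176).

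Genes of nucleotide supply and the replication clamp showed no shift of this kind, and 0 of 5 passed. Pcna, the sliding clamp that also serves DNA repair, had 172, 194 and 197 CPM in ILC3 against 108 and 167 CPM in CD4 T, so every ILC3 library was above CD4 T. Its log2 difference of 0.45 (SE 0.302, by edgeR, adjusted p = 0.351) was -0.061 with library size as the only scaling. Rrm1, the large subunit of ribonucleotide reductase, had 32.6, 31.1 and 46.8 CPM in ILC3 against 35.6 and 16.2 CPM in CD4 T. Its small subunit in S phase, Rrm2, had 2.06, 2.43 and 4.85 CPM in ILC3 against 0.951 and 16.3 CPM in CD4 T, and the CD4 T libraries enclosed all ILC3 values. Tyms, thymidylate synthase, had 16.9, 38.0 and 34.4 CPM in ILC3 against 19.0 and 64.6 CPM in CD4 T, with overlap. Tk1, thymidine kinase of S phase, had 0.469, 1.67 and 0.117 CPM in ILC3 against 7.33 and 7.53 CPM in CD4 T. Tk1 was thus the gene of this role whose groups stood clearly apart, at a log2 difference of -3.31 (SE 1.2, by edgeR, adjusted p = 0.108). Per kilobase, Pcna was 73.4, 65.5 and 106 times the median Mcm subunit in the ILC3 libraries, and 9.06 and 12.6 times in the CD4 T libraries.

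Mitotic genes had the lowest median log2 difference of the roles, -3.76 over 10 genes, and all 10 were negative. In 7 of them, 70%, every ILC3 library lay below both CD4 T libraries, against 29.6% of all genes tested. Plk1 (chr7:122159435-122169884), a kinase of mitotic entry and spindle assembly, had 0, 1 and 0 counts in ILC3 against 186 and 26 counts in CD4 T. In CPM, this is 0 to 0.0641 in ILC3, against 7.37 and 1.41 in CD4 T. Plk1 was 293 times lower in ILC3 from summed counts, within 52.1 to 11635 for counting error (by edgeR, adjusted p = 0.0454). Without ILC3 replicate 1, 2 or 3, or CD4 T replicate 1, its adjusted p was 0.103, 0.0911, 0.0893 or 0.274 in edgeR, with fitted log2 differences from -5.78 to -9.60 that rest on almost no ILC3 counts. Plk1 still passed without CD4 T replicate 2, at -8.23 (edgeR adjusted p of 0.0438).

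Ube2c (chr2:164769929-164772902), the ubiquitin-conjugating enzyme of the anaphase-promoting complex, had 2.06, 0.192 and 2.10 CPM in ILC3 against 9.39 and 49.3 CPM in CD4 T. All ILC3 libraries were lower, while the CD4 T libraries were far apart from each other. It fell by 4.32 on the log2 scale (SE 1.09, by edgeR, adjusted p = 0.0475). The Ube2c call held in none of the 5 fits without a library (edgeR adjusted p from 0.0625 to 0.227), with log2 differences of -5.06 when CD4 T replicate 1 and -2.67 when CD4 T replicate 2 was left out.

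Birc5, which encodes survivin of the chromosomal passenger complex, had 4.26, 0 and 5.03 CPM in ILC3 against 55.7 and 112 CPM in CD4 T (log2 difference -4.74, SE 1.30, by edgeR, adjusted p = 0.0566). It passed without ILC3 replicate 2 (by edgeR, adjusted p = 0.0196), the library with no Birc5 count. Top2a, the topoisomerase that untangles chromosomes, had 0.397, 2.11 and 6.08 CPM in ILC3 against 33.4 and 27.9 CPM in CD4 T (log2 difference -3.43, SE 0.986, by edgeR, adjusted p = 0.0622). Mki67, the gene of the proliferation marker Ki-67, had 0, 0 and 5.09 CPM in ILC3 against 41.0 and 24.9 CPM in CD4 T. ILC3 replicate 3 was the library that held Mki67, with 87 counts, and the log2 difference of -4.29 had an SE of 1.92 (by edgeR, adjusted p = 0.171). Without that library Mki67 passed (by edgeR, adjusted p = 0.0136), against a group with no count.

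None of the remaining mitotic genes passed. Cdc20, an activator of the anaphase-promoting complex, had 11, 0 and 0 counts in ILC3 against 82 and 32 counts in CD4 T. Stmn1, which destabilises microtubules, had 3.72, 2.69 and 1.87 CPM in ILC3 against 4.92 and 20.6 CPM in CD4 T (log2 difference -2.20, SE 0.805, by edgeR, adjusted p = 0.11). Aurora kinase genes overlapped between the groups: Aurka had counts in ILC3 replicate 2 alone (46 counts) and 21 and 51 counts in CD4 T, and Aurkb had counts in ILC3 replicate 1 alone (41 counts) and 28 and 116 counts in CD4 T. Bub1, a kinase of the spindle checkpoint, had 126, 0 and 0 counts in ILC3 against 121 and 9 counts in CD4 T. Its log2 difference was -0.79 and was 1.64 without CD4 T replicate 1.

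**Figure D3:**
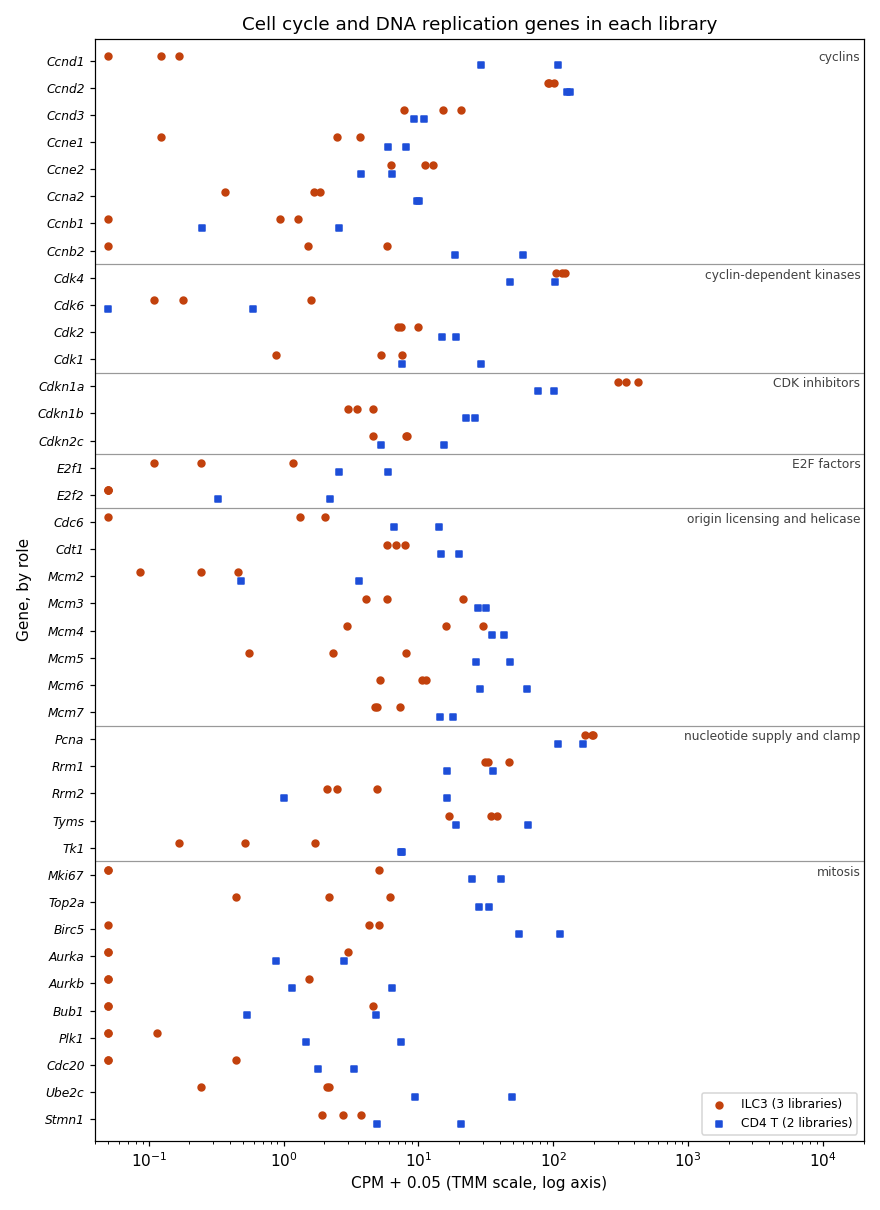
CPM plus 0.05 on a log axis for all 40 genes in each library, by role, with circles for the 3 ILC3 and squares for the 2 CD4 T libraries; a point at the left edge has no count. Circles lie left of both squares in 25 genes, among them all 8 of licensing, and right of both in 3 on the TMM scale.

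Summed by role, the groups did not overlap for cyclins, CDK inhibitors, E2F factors, licensing genes and mitotic genes. CDK inhibitors were higher in ILC3, at 436, 353 and 312 CPM against 132 and 114 CPM in CD4 T, and most of the ILC3 sum was Cdkn1a. The others were lower in ILC3, where the E2F factors summed to only 1.12, 0.192 and 0.0585 CPM. Licensing genes summed to 58.6, 51.2 and 49.2 CPM in ILC3 against 195 and 200 CPM in CD4 T. Mitotic genes summed to 16.8, 8.01 and 20.2 CPM in ILC3 against 162 and 247 CPM in CD4 T. Kinases and genes of nucleotide supply overlapped between the groups. Over all 40 genes the sums were 997, 931 and 911 CPM in ILC3 against 1022 and 1247 CPM in CD4 T, and Cdkn1a, Pcna and Cdk4 made up much of the ILC3 sum.

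**Figure D4:**
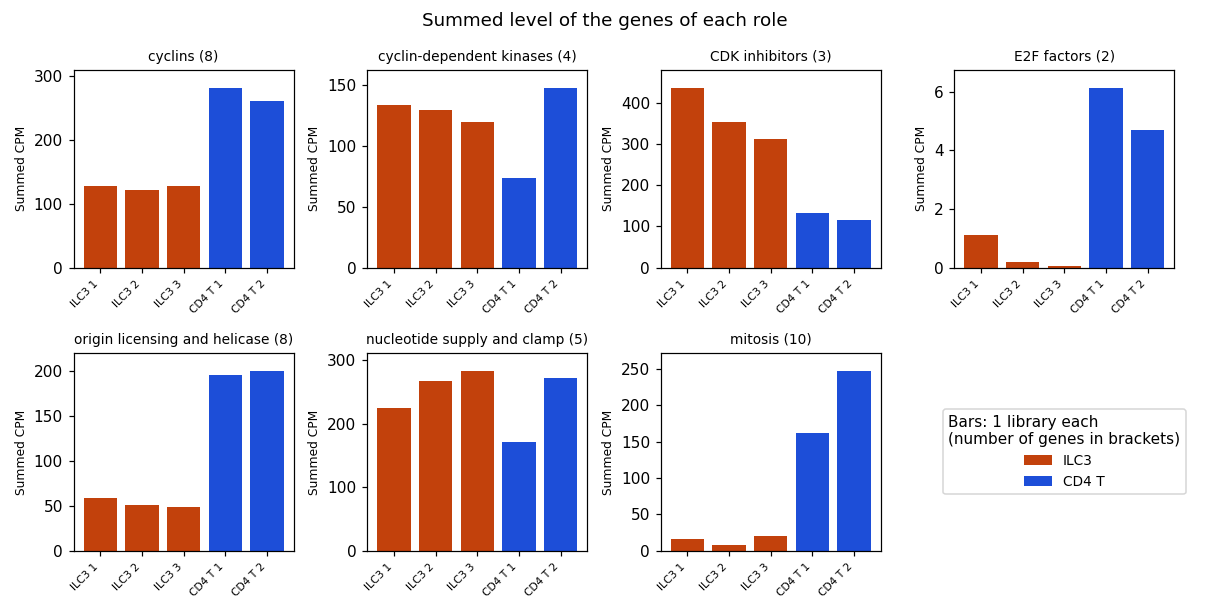
Summed CPM of the genes of each role, with a bar for each library and axes that start at 0; the number of genes stands in brackets. The 3 ILC3 bars of the mitotic genes reach 8.01 to 20.2 CPM and the 2 CD4 T bars 162 and 247 CPM.

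Absent counts were more common among these genes in ILC3. Of the 39 genes tested, 4, 6 and 7 had no count in the ILC3 libraries and 1 and 0 in the CD4 T libraries. These are 10.3%, 15.4% and 17.9% in ILC3, against 2.56% and 0% in CD4 T, while over all genes tested the shares were 7.56%, 6.70% and 9.08% in ILC3, against 6.39% and 3.59% in CD4 T. A gene could pass the count filter on CD4 T alone, as Plk1 did with 186 and 26 counts there against 0, 1 and 0 in ILC3. For such a gene an absent count can fall only in ILC3, so these shares add no separate support for lower levels. Genes with no count in a library were in part well counted in another library of the same group, as with Aurka, Aurkb, Bub1 and Ccnb2 in ILC3.

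Per kilobase of exon, the order of mean levels in ILC3 began with Cdkn1a at 131, Pcna at 123 and Cdk4 at 55.7 CPM per kilobase. Cdkn1a and Pcna do not differ beyond their spread there, at 110 to 156 and 113 to 129 CPM per kilobase. Ccnd2 followed at 14.1, Tyms at 9.41 and Rrm1 at 9.22, and every other gene averaged under 6 CPM per kilobase. In CD4 T the order began with Pcna at 90.5, Cdk4 at 36.7 and Cdkn1a at 32.6 CPM per kilobase, where Cdk4 and Cdkn1a overlapped. Ccnb2 at 25.7, Birc5 at 24.6 and Ccnd2 at 19.4 came next, and these neighbours do not differ beyond their spread, since Ccnb2 ran from 12.2 to 39.2 and Birc5 from 16.4 to 32.9 between the CD4 T libraries.

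Further genes of the pathway, from 4 lists of 145 genes in all, were read in the same fit, and 136 could be tested. Of these 20 fell and 5 rose in ILC3, where the background was 7.21% lower and 6.46% higher. Mitotic genes held the most calls, with 10 of 50 tested lower and 0 higher and a median log2 difference of -2.14. Cdca3, a regulator of mitotic entry, had 1 count summed over ILC3 against 868 over CD4 T, and was 1201 times lower (215 to 47472 for counting error; by edgeR, adjusted p = 0.00537). Cdca5, or sororin, which holds sister chromatids together, and Hmmr, a spindle protein, had no count in ILC3 (by edgeR, adjusted p = 0.0284 and 0.0325). From summed counts, against 3 counts over the ILC3 group, they were at least 201-fold and 125-fold lower than in CD4 T. Without CD4 T replicate 1, which held 378 of the Cdca5 and 205 of the Hmmr counts against 59 and 66 in CD4 T replicate 2, neither passed (by edgeR, adjusted p = 0.189 and 0.179), and the fitted log2 differences were -8.98 and -9.14 in place of -10.57 and -9.93. Cdca5 also did not pass without ILC3 replicate 1 or 2, nor Hmmr without any other library, while the Cdca5 fit without CD4 T replicate 2 gave -11.32. Cdca3 passed without each library, with a fitted log2 difference of -9.08 without ILC3 replicate 1 and -11.79 without ILC3 replicate 2, in place of -9.74. Incenp, a scaffold of the chromosomal passenger complex, fell by 2.81 on the log2 scale (SE 0.608, by edgeR, adjusted p = 0.0318), a call that held in 1 of the 5 fits without a library, the one that left out CD4 T replicate 2.

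Of 48 further replication genes tested, 7 fell and 1 rose, with a median log2 difference of -0.34. For these and the G1 genes below, the shares over all genes tested were 7.21% lower and 6.46% higher. Chaf1a, a histone chaperone of replicating DNA, had no count in ILC3 and was at least 133-fold lower from summed counts (by edgeR, adjusted p = 0.0291). Cdc7, the kinase that fires origins, fell by 3.88, the polymerase gene Pold1 by 3.63 and the single-strand binding gene Rpa1 by 2.18 on the log2 scale (by edgeR, adjusted p = 0.0375, 0.0379 and 0.0385). Chaf1a and Cdc7 kept their calls in 1 of the 5 fits without a library, those without ILC3 replicate 3 and ILC3 replicate 2, Pold1 in 2, which left out ILC3 replicate 3 or CD4 T replicate 2, and Rpa1 in none. The log2 difference of Cdc7 was -4.79 without ILC3 replicate 2, that of Pold1 was -4.44 without ILC3 replicate 3 and -3.04 without CD4 T replicate 1, and the fitted value of Chaf1a was -9.45 without CD4 T replicate 1 in place of -10.04. Slbp, which binds histone mRNA, went the other way, at 688, 584 and 703 CPM in ILC3 against 51.6 and 189 CPM in CD4 T (log2 difference 2.45, SE 0.582, by edgeR, adjusted p = 0.0406). Its CD4 T libraries were far apart, and leaving out CD4 T replicate 1 or 2 gave a log2 difference of 1.8 or 3.68. Slbp did not pass without ILC3 replicate 1, 2 or 3 (by edgeR, adjusted p = 0.0967, 0.0915 and 0.0868) or with library size as the only scaling (0.0661). Among 20 further G1 genes tested, 2 rose and 1 fell, at a median log2 difference of -0.02. Tfdp2, a partner of E2F factors, rose by 1.88 (by edgeR, adjusted p = 0.0491). Mycn, a transcription factor of the Myc family, had no count in CD4 T (by edgeR, adjusted p = 0.0473). From summed counts, against 3 counts over the CD4 T group, Mycn was at least 40.2-fold higher in ILC3. Cks1b, a subunit of CDK complexes, fell by 1.68 on the log2 scale (by edgeR, adjusted p = 0.0333). Leaving out CD4 T replicate 2 gave Cks1b a log2 difference of -1.02, and its call held in 1 of the 5 fits without a library, the one that left out CD4 T replicate 1. Tfdp2 and Mycn passed in none of these fits (edgeR adjusted p from 0.0541 to 0.12 and from 0.075 to 0.135), and the fitted log2 difference of Mycn was 8.20 without ILC3 replicate 3 in place of 8.91.

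Of 18 quiescence and antiproliferative genes, 2 rose, 2 fell and 14 did not pass, with a median log2 difference of -0.11. Over all genes tested, 6.46% were called higher and 7.21% lower. Ccng2, an unusual cyclin known to restrain the cycle, had 768, 690 and 675 CPM in ILC3 against 82.0 and 63.2 CPM in CD4 T. That is a rise of 3.29 on the log2 scale (SE 0.324, by edgeR, adjusted p = 0.00342), and the groups were far apart. Gadd45g, a stress-response gene, rose by 3.26 (SE 0.666, by edgeR, adjusted p = 0.0271), with 2.59 without CD4 T replicate 1 and 4.55 without CD4 T replicate 2. It did not pass without ILC3 replicate 1, 2 or 3 (by edgeR, adjusted p = 0.0737, 0.0644 and 0.0558). Klf2, known for keeping T cells quiescent, fell by 3.82 (SE 0.462, by edgeR, adjusted p = 0.00634), and Foxp1, another quiescence factor, by 1.34 on the log2 scale (by edgeR, adjusted p = 0.0452). The Foxp1 call held in 1 of the 5 fits without a library, the one that left out CD4 T replicate 2, and leaving out CD4 T replicate 1 gave -0.87. Of the 25 called genes of these 4 lists, 3 passed in every fit without a library, Ccng2, Klf2 and Cdca3, and 10 passed in none of them, among them Hmmr, Rpa1, Mycn and Tfdp2.

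**Figure D5:**
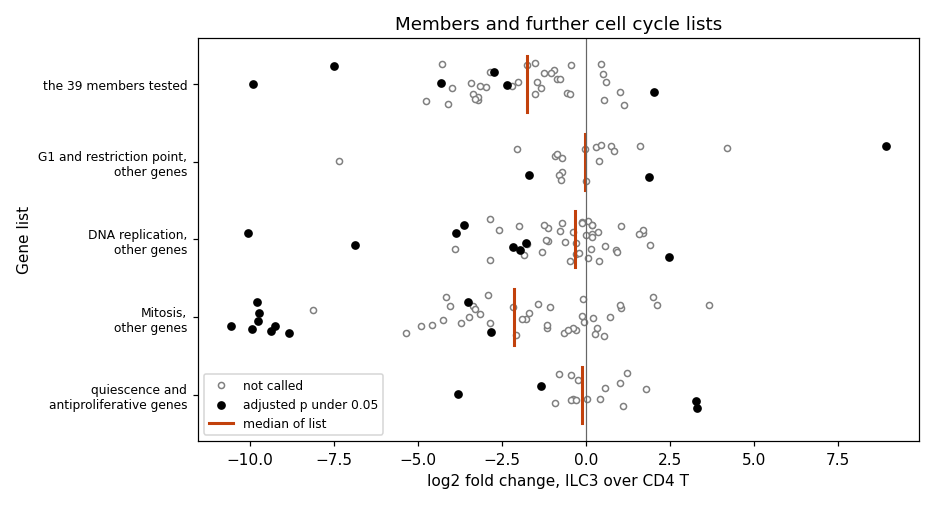
Log2 fold change of ILC3 over CD4 T for the 39 genes tested and the tested genes of 4 further lists, with filled points for an adjusted p under 0.05 in edgeR and a bar at each median; points are spread vertically at random to be seen. Medians are -1.77 for the 39 genes and -2.14 for further mitotic genes, and the outermost points belong to genes with no or few counts in a group, whose fitted values have no measured size.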

How the data were processed

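Whole-number read counts per gene were deposited by the authors for 3 ILC3 and 2 CD4 T libraries. The submitters' processing notes name STAR 2.3.0, CASAVA 1.8.2 and mm10. How reads were counted, with which annotation and whether by strand, is not given in the sources used here, and overlapping or antisense genes cannot be told apart. Of 27179 gene identifiers, 25275 matched a RefSeq symbol of GRCm38.p6, the assembly that mm10 names; the other 1904 stayed in the fit. Every column belonged to a library.

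Counts were filtered with filterByExpr, scaled by TMM (factors 0.744 to 1.25) and tested with edgeR 4.0.16 in R 4.3.3 (quasi-likelihood F test, 3 residual degrees of freedom, no covariate, Benjamini-Hochberg over 12747 genes). SE is the log2 difference divided by the square root of F. The procedure was tested on simulated data. A count of 0 allows 3 counts, or 0.116 to 0.198 CPM by library before scaling. For groups at 0, folds set 3 counts over the group against the summed counts of the other group. Such folds do not cover the spread between libraries. Intervals are exact 95% intervals for counting error only: the kit amplifies cDNA and no molecular identifiers are given, so reads are not separate molecules. Levels per kilobase use the union of GENCODE M21 basic exons.

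Members and lists were chosen with earlier results of these data known. All 40 members are named, and from each further list up to 4 called genes per direction with the smallest p. Alternatives were DESeq2 1.42.0, limma-voom (limma 3.58.1), other scalings and filters, a replicate block and each library left out. Replicate numbers occur in both groups, and no label says whether they pair the libraries.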

Additional observations from a re-analysis of the deposited data

How the results depend on the processing

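The 39 tested genes gave 543 values of a log2 difference over 14 alternatives. Of these, 482 kept their direction and their side of the threshold, 29 values newly passed, 24 no longer passed and 8 changed sign, each of the 8 in a gene that had not passed. Changes of sign were Pcna (-0.061) and Rrm1 (-0.0057) with library size alone, Bub1 without CD4 T replicate 1, and Aurka, Ccnb1, Cdkn2c, Rrm2 and Tyms without CD4 T replicate 2. With 1 library left out, log2 differences ran from -8.67 to 1.64 for Bub1, from -8.32 to 0.24 for Aurka, from -1.84 to 1.81 for Ccnb1, from -1.15 to 0.43 for Cdkn2c, from -2.38 to 1.72 for Rrm2 and from -1.11 to 0.66 for Tyms. The cause was not tested.

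Among the members, the number higher in ILC3 was 0 and the number lower 8 with library size alone, which moved the median of all genes tested from -0.10 to -0.60 and the share of called genes that were higher from 47.3% to 20.4%. Lower members were 10 with no filter on low counts, 12 with DESeq2 and 10 with limma-voom. With 1 library left out, 0 to 2 members were higher and 2 to 4 lower. All genes called numbered 1743, against 2628 with no filter, 3772 with DESeq2, 2719 with limma-voom and 616 to 2672 with 1 library left out. In the further lists, 3 genes were higher with library size alone, 8 with TMM without receptor segment genes, 15 with DESeq2 and 12 with limma-voom, and with 1 library left out 1 to 14 were higher and 3 to 9 lower.

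With the replicate block, on the numbers in the titles, 0 members were higher and 2 lower (Ccnd1 and Mki67), 520 genes were called in all, and 1 gene of the further lists was higher and 4 were lower; 1 residual degree of freedom remained. Deviations of same-numbered libraries correlated at -0.0235 and -0.0338 across genes. The deviations of the 2 CD4 T libraries mirror each other, so these values cannot show whether the numbers pair the libraries. Plk1 and Mcm2 had 1 and 11 counts summed over ILC3, so the size of their differences is poorly measured. Counts of Aurka and Bub1 differed between the ILC3 libraries, which held 25956023, 21004594 and 20905412 counts in all, and the cause was not tested.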
